A study of Mus musculus with 4 samples.

Results

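The variable region of the mouse immunoglobulin heavy chain locus (Igh) was described here through 2570 consecutive 1 kb bins, at chr12:114680001-117250000 of mm9, out of 2654907 bins in the nuclear genome. The rule that defines the bins uses their position and no read count. The range holds 138 annotated genes: 116 V segments, 20 D segments and 2 genes of the Adam6 family. The 4 annotated J segments (chr12:114666725-114668044) and the D segment Ighd4-1 lie just below the start of the range, so they are given as a neighbouring stretch and not as members. The bins were divided into a D-J part of 132 bins up to the lowest V segment, a proximal V part of 895 bins, and a distal V part of 1543 bins that begins at the lowest segment of the Ighv1 family. The proximal part holds 47 V segments and the distal part 69.

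Heavy chain variable exons are assembled in developing B cells, which join a D segment to a J segment and then a V segment to the joined DJ. The DNA between joined segments is usually cut out of the chromosome, so a mature B cell keeps the J segments and constant genes downstream of its rearrangement and the V segments upstream of it. The recombinase recognizes a signal beside each segment, made of a heptamer and a nonamer separated by a spacer, and its RAG2 subunit binds histone H3 methylated at lysine 4 (H3K4). V segments carry their own promoters, which contain an octamer bound by the factors Oct-1 and Oct-2. PA1 (now Pagr1a) works with PTIP, a protein also found in the MLL3 and MLL4 complexes that methylate H3K4.

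The study compared activated B cells lacking PA1 with wild-type ones in relation to transcription for class switching. The libraries were 1 from B cells labelled PA1-KO and 1 from B cells labelled PA1-WT, each from spleens of mice 6 to 14 weeks old after removal of CD43-positive cells. Both had been stimulated for 2 days with LPS at 25 µg/ml and a further agent, either anti-IgD coupled to dextran at 2.5 ng/ml or IL-4 at 5 ng/ml, and the labels of these samples do not say which. Chromatin was cut to mononucleosomes with MNase, without crosslinking, and precipitated with an antibody given only as H3K4, without the methylation state. The labels also do not give the allele, any Cre driver, the mouse strain or whether animals were pooled. The knockout library held 5260401 reads and the wild-type library 5539549. Of the other 2 samples in the series none was analysed here.

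With 1 library per genotype replicates could not be checked and genotypes could not be tested, and every difference below is between these 2 libraries. Intervals are exact 95% intervals that cover counting error only. A ratio is knockout over wild type after scaling over promoters by TMM, the trimmed mean of log ratios. A bin, island or window was called where its ratio was at least 1.5-fold away from 1 and its interval excluded 1. The PA1 promoter held 114 knockout and 261 wild-type reads, for a ratio of 0.498 (0.396 to 0.624), although the deleted piece of the gene is not given in the labels. Promoters of 8 of 8 B cell markers held between 376 and 570 knockout reads and between 385 and 585 wild-type reads. The 5 T cell markers summed to 412 knockout and 388 wild-type reads, of which 407 and 382 lay at a single gene. The 4 myeloid markers summed to 121 knockout and 176 wild-type reads, of which the highest gene held 118 and 171. The 3 erythroid markers summed to 163 knockout and 182 wild-type reads. Reads outside islands and promoters numbered 1344762 in the knockout and 1246419 in the wild-type library, so scaling to that background lowers every log2 ratio by 0.30.

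The signals and sequences that the results turn on are shown first. Ighd1-1, the D segment farthest from the J segments among those in frequent use (also known as DFL16.1), lies at the edge of the strongest D-J signal. It is printed on the minus strand, the strand of transcription, with its pair of nonamers and pair of heptamers in capitals (chr12:114720348-114720436, NCBIM37, the assembly of mm9).
Ighd1-1: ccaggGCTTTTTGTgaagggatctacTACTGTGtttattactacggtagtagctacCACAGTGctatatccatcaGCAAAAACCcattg
The 6 V segments with the most reads follow, each shown by the 39 bases beyond its 3′ end on the minus strand, which hold the recombination signal, with the bases in the heptamer and nonamer places in capitals. Of 116 V segments, 72 have the exact heptamer CACAGTG in this place and 2 the exact nonamer ACAAAAACC. The positions are chr12:115526324-115526362 for Ighv3-6, chr12:117190710-117190748 for Ighv1-82, chr12:115717177-115717215 for Ighv10-1, chr12:115802750-115802788 for Ighv15-2, chr12:116152771-116152809 for Ighv1-39 and chr12:116403949-116403987 for Ighv8-6.
Ighv3-6: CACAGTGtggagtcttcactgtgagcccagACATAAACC
Ighv1-82: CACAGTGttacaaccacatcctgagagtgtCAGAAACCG
Ighv10-1: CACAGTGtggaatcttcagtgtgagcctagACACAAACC
Ighv15-2: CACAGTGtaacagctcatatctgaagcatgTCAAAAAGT
Ighv1-39: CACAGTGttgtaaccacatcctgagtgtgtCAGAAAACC
Ighv8-6: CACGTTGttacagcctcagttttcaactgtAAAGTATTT
The promoter octamer, ATGCAAAT or its reverse complement ATTTGCAT on either strand, was found between 250 bases before and 50 bases after the annotated 5′ end in 88 of 116 V segments (75.9%). In windows of the same length at 32851 RefSeq promoters (GRCm38.p6) it was found in 570 (1.74%). For 37 V segments the annotation is under 320 bp long, and in 25 of these the window held the octamer. Of the 6 segments above, those annotated at full length with an octamer in the last 150 bases before the 5′ end are shown with it in capitals, again on the minus strand, at chr12:115526873-115526922, chr12:115717754-115717803 and chr12:116153322-116153371. Between the octamer and the annotated 5′ end lie 101 bases at Ighv3-6, 113 at Ighv10-1 and 100 at Ighv1-39.
Ighv3-6: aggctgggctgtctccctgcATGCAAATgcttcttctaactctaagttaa
Ighv10-1: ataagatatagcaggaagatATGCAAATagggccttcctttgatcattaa
Ighv1-39: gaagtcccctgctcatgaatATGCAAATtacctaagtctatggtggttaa

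H3K4 signal in the variable region was sparse and uneven in both libraries. The range held 1176 knockout and 1114 wild-type reads, or a ratio of 1.20 (1.11 to 1.31). No read of either library fell in 1694 of the 2570 bins (65.9%), and 8 bins with 20 or more reads held 21.1% of all reads. The range is also repetitive, and an exact 25-base read could be placed uniquely at 51.1% of its positions, with 44.2% in the D-J part, 63.2% in the proximal V part and 44.6% in the distal V part. Densities are therefore given per mappable kb. The plot of reads along the locus shows a single tall stretch beside Ighd1-1 and a few lower ones among the V segments.

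**Figure D1:**
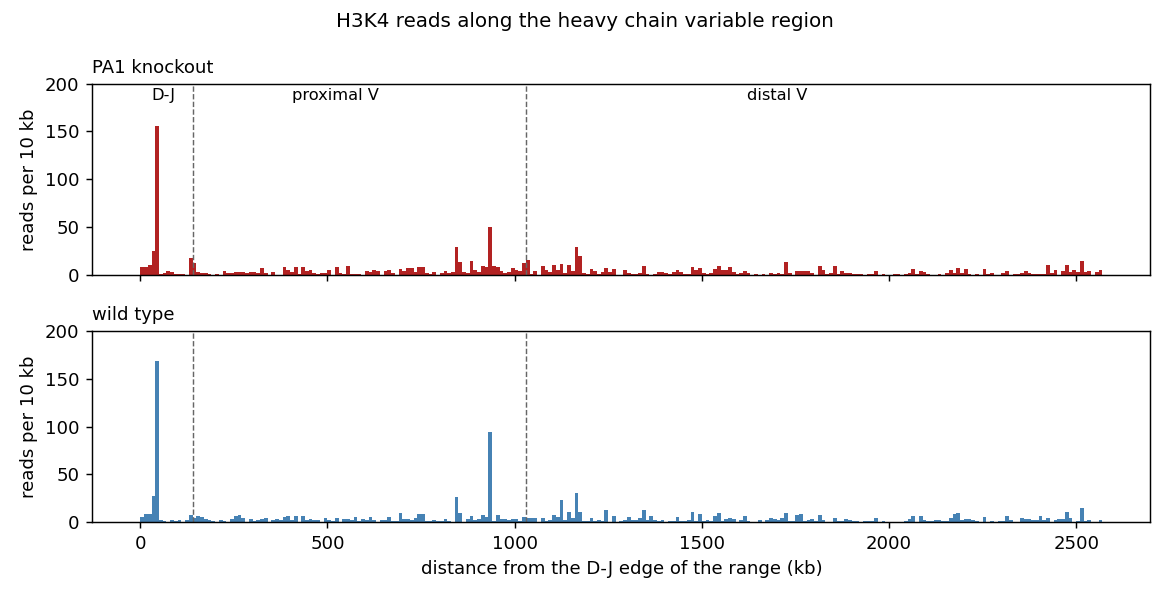
Reads per 10 kb (y axis) against distance from the D-J edge of the range in kb (x axis), with the knockout library above and the wild-type library below. Dashed lines mark the starts of the proximal and distal V parts, and in both libraries the tallest column lies in the D-J part and the second tallest in the proximal V part.

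None of the 3 parts differed between the libraries by as much as 1.5-fold. The D-J part held 222 knockout and 228 wild-type reads, giving a ratio of 1.11 (0.920 to 1.34). The proximal V part held 430 knockout and 392 wild-type reads, for a ratio of 1.25 (1.09 to 1.44). The distal V part held 524 knockout and 494 wild-type reads, or a ratio of 1.21 (1.07 to 1.37). The intervals of both V parts lay above 1 and that of the D-J part included it. Scaled to total reads the distal V part was at 1.12 (0.986 to 1.27), which includes 1, and outside islands the D-J part was at 1.39 (1.02 to 1.91), which excludes it. Scaled to background, the D-J part was at 0.902 (0.747 to 1.09) and the proximal V part at 1.02 (0.885 to 1.17). The distal V part was then at 0.983 (0.868 to 1.11), and all 3 intervals included 1. In a bulk culture, fewer cells or alleles that carry a mark, or that still hold the DNA, cannot be told apart from less signal on each.

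The parts were then set against each other inside each library, which needs no scaling. As a log2 ratio of ratios, the value was -0.12 (-0.45 to 0.21) for the D-J against the distal V part. It was 0.05 (-0.22 to 0.32) for the proximal against the distal V part and -0.17 (-0.51 to 0.17) for the D-J against the proximal V part. Each interval included 0, so no difference between the parts was detectable at this depth.

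D and J sequence carried far more signal per kb than V sequence, in both libraries, and most of it lay in a small part of the D-J stretch. Just below the range, the 4 kb with the J segments and Ighd4-1 (chr12:114666001-114670000) held 640 knockout and 627 wild-type reads, or 160 and 157 per mappable kb, with a ratio of 1.16 (1.04 to 1.30). In the next 10 kb up to the range there were 15 knockout and 15 wild-type reads, or 2.14 per mappable kb in each. The 40 kb that hold most D segments (chr12:114680001-114720000) had 52 knockout and 50 wild-type reads, or 3.36 and 3.23 per mappable kb. The 5 bins beside Ighd1-1 (chr12:114720001-114725000) had 150 knockout and 164 wild-type reads, or 41.3 and 45.1 per mappable kb. Between there and the lowest V segment, 87 bins held 20 knockout and 14 wild-type reads, or 0.510 and 0.357 per mappable kb. Signal was thus high at the J segments, low over the middle D segments, high again at Ighd1-1 and lowest beyond it, as the plot of densities by stretch shows.

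**Figure D2:**
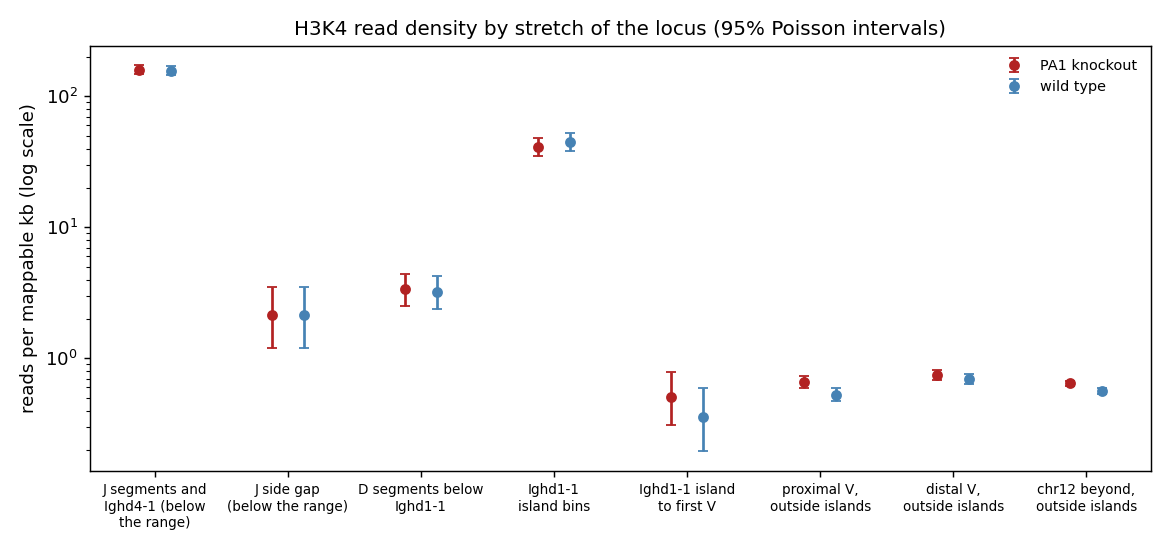
Reads per mappable kb on a log scale (y axis) for 8 stretches of chromosome 12 (x axis), with the knockout library left and the wild-type library right in each pair and 95% Poisson intervals as bars. The J segments stand at 160 knockout and 157 wild-type reads per mappable kb, and the stretch between Ighd1-1 and the first V segment at 0.510 and 0.357.

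Of the 20 D segments, 4 had no read within 500 bp of the segment in either library, and Ighd1-1 had 41 knockout and 53 wild-type reads, giving a ratio of 0.883 (0.573 to 1.35). The next highest, Ighd2-3, had 3 knockout and 3 wild-type reads. Adam6b, of a family of sperm proteins needed for male fertility, had 1 knockout and 2 wild-type reads, and Adam6a had 0 in both.

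The signal at Ighd1-1 was one-sided. Within 500 bp on its 5′ side, toward the V segments, there were 36 knockout and 47 wild-type reads (73.2 and 95.5 per mappable kb). Within 500 bp on its 3′ side, toward the J segments, there were 4 knockout and 5 wild-type reads (8.05 and 10.1 per mappable kb). From 500 to 2500 bp the 5′ side held 71 knockout and 86 wild-type reads (53.3 and 64.6 per mappable kb), and the 3′ side 10 and 10 (7.25 per mappable kb in each). In both libraries every interval of the 5′ side lay above those of the 3′ side. Joining of Ighd1-1 to a J segment removes the DNA on its 3′ side. Joining of a V segment to Ighd1-1 removes the DNA on its 5′ side. How many alleles of these cultures still held either side was not measured, and the cause of the one-sided signal was not tested.

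Islands, runs of 200 bp windows with more reads than a uniform background allows (Poisson probability under 1e-05 in both libraries together), numbered 5 in the range, or 1.95 per Mb against 9.40 per Mb in the genome. These rates are per Mb of all sequence, of which 51.1% was mappable in the range and 80% was taken as mappable genome-wide. The 5 islands cover 5200 bp, 0.202% of the range, and held 16.6% of its knockout and 23.3% of its wild-type reads. Of these, the island at Ighd1-1 alone held more reads than the genome's median island, which had 158 in both libraries together. Of the 5, 1 was called lower in the knockout library, where 5.39% of all 24957 islands were, and 0 were called higher, where 3.35% of all islands were. With the background scaling these shares were 16.3% and 1.18% of all islands, and the Ighd1-1 island's ratio, given next, stayed short of 1.5-fold.

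The Ighd1-1 island (chr12:114720401-114722800) held 105 knockout and 132 wild-type reads, for a ratio of 0.908 (0.696 to 1.18). Scaled to background its ratio was 0.737 (0.565 to 0.960). It has a 300-base core that held more reads than any other such stretch of the island, printed on the plus strand (chr12:114720586-114720885), in which no CpG occurs.
Ighd1-1 island: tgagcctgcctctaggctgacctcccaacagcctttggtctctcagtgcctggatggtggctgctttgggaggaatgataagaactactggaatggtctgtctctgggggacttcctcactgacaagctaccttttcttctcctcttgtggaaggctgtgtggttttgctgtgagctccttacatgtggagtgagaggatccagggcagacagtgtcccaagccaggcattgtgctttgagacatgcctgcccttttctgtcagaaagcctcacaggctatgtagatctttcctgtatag
A second island in the D-J part (chr12:114723601-114724200), 3198 bp from Ighd1-1, held 23 knockout and 19 wild-type reads, or a ratio of 1.38 (0.720 to 2.68). Between the islands, 500 bp at chr12:114723001-114723500 held 10 knockout and 2 wild-type reads. The 1 kb bin with these reads (chr12:114723001-114724000) held 32 knockout and 17 wild-type reads, giving a ratio of 2.15 (1.16 to 4.12). It was the 1 bin called higher of 8 with 20 or more reads, beside 6.00% of the genome's bins called higher. With the background scaling its ratio was 1.74 and it was not called, beside 1.98% of the genome's bins. It was also not called with 2 kb bins, and with 49 reads in all it falls short of a minimum of 50.

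The one called difference toward the wild-type library lay at the V island between Ighv12-3 and Ighv6-3. This island (chr12:115616801-115617800) held 40 knockout and 85 wild-type reads, for a ratio of 0.537 (0.359 to 0.791), with 74.6 and 159 reads per mappable kb. It was lower in the knockout library also when scaled to total reads, at 0.496, and to background, at 0.436. The bin that holds most of it (chr12:115617001-115618000) had 38 knockout and 74 wild-type reads, or a ratio of 0.586 (0.386 to 0.878). It was the 1 bin of 8 called lower, beside 5.20% of the genome's bins, or 15.3% with the background scaling. The shortfall lay mostly in 500 bp (chr12:115617001-115617500), with 19 knockout against 48 wild-type reads, hence a ratio of 0.452 (0.251 to 0.783), while the next 500 bp had 19 and 26.

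Within each library, the V island, singled out because it was called lower, differed from the rest of the V sequence and from the Ighd1-1 island. These comparisons reuse the reads of that call and are not a separate result. Set against V bins outside islands, the log2 ratio of ratios of the V island was -1.28 (-1.88 to -0.70). The Ighd1-1 island was also lower against them, at -0.52 (-0.93 to -0.11). Over the genome, promoters against background stood at -0.30 between the libraries. That value lies inside the Ighd1-1 interval and above that of the V island. The Ighd1-1 island stood 0.76 (0.07 to 1.46) above the V island on the same scale, a difference that does not depend on the library scaling. Against the island by Ighv1-12, with few reads, the V island stood at -0.67 (-1.99 to 0.68), an interval that includes 0. The profiles of both sites show the one-sided signal at Ighd1-1 and the lower columns of the V island in the knockout library.

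**Figure D3:**
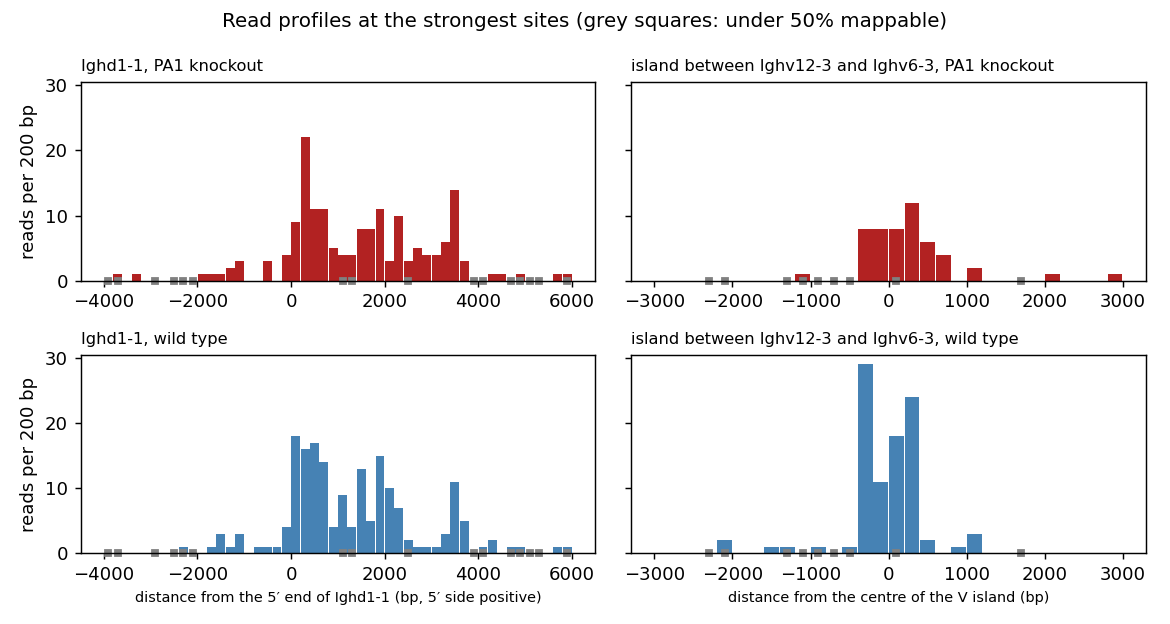
Reads per 200 bp (y axis) against distance in bp (x axis) from the 5′ end of Ighd1-1 (left, 5′ side positive) and from the centre of the V island (right), with the knockout library above and the wild-type library below. Grey squares mark windows under 50% mappable, and the V island, with 40 knockout and 85 wild-type reads, is lower in the knockout library.

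The V island is unlike its surroundings in sequence. Its GC content is 57.8% and it holds 44 CpG per kb, against 39.4% and 4.99 CpG per kb over the range, and from 0 to 5.42 CpG per kb in the other 4 islands. The 300 bases with the most reads are printed on the plus strand with CpG in capitals (chr12:115617419-115617718), where 6 occur.
V island: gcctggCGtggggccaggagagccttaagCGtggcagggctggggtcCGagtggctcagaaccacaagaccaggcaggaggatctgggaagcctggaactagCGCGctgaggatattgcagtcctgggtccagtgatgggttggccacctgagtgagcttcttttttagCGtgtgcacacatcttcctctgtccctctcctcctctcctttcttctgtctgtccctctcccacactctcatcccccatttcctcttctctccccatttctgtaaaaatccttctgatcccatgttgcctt
It lies 11636 bp from Ighv12-3 and no annotated segment overlaps it. Its best other match in the genome (blastn) is chr11:53672185-53673032, at 94.98% identity over 857 bp, where the gene Gm12216 is annotated. That copy held 68 knockout and 96 wild-type reads, giving a ratio of 0.808 (0.584 to 1.11), or 0.657 scaled to background. A unique 25-base read can be placed at 53.6% of the island, and 22.5% of its knockout reads (10.8% to 38.5%) and 10.6% of its wild-type reads (4.96% to 19.2%) had a mismatch to the reference, against 8.04% and 7.34% of all nuclear reads. With mismatched reads left out, the ratio was 0.470 (0.299 to 0.722). The part of the copy and of the strain in the difference was not tested. In the range as a whole, mismatched reads made up 6.04% of knockout and 5.12% of wild-type reads. Positions at which 2 or more reads mismatched numbered 1 in the knockout library alone, 0 in the wild-type library alone and 1 in both.

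The remaining islands were small. The island at Ighv3-6 (chr12:115526601-115527200) held 15 knockout and 8 wild-type reads, for a ratio of 2.14 (0.852 to 5.83). The island 6061 bp from Ighv1-12 (chr12:115847401-115848000), the only one in the distal V part, held 12 knockout and 16 wild-type reads, or a ratio of 0.856 (0.370 to 1.93). Both intervals included 1.

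**Figure D4:**
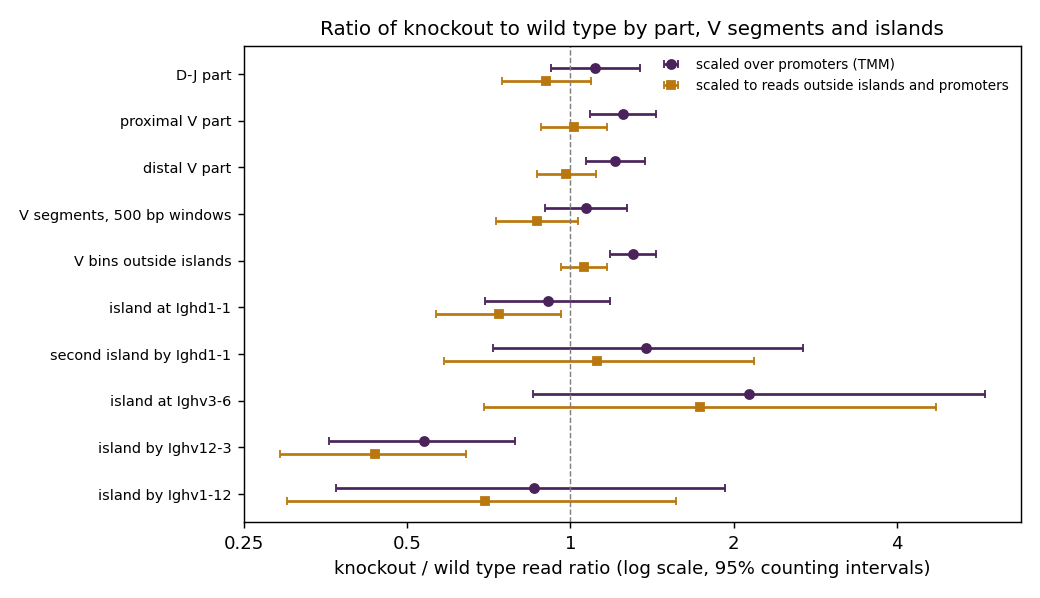
Knockout over wild-type ratio on a log scale (x axis) with 95% counting intervals for the 3 parts, V segments and islands (y axis), scaled over promoters (circles) or to reads outside islands and promoters (squares). The island by Ighv12-3, at 0.537 and 0.436, is the one whose interval lies below 1 under both scalings.

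Signal stood at the V segments themselves in both libraries. Within 500 bp of the annotated 5′ ends, 116 segments summed to 253 knockout and 270 wild-type reads, giving a ratio of 1.07 (0.897 to 1.27). With 1 kb on either side the ratio was 1.18 (1.01 to 1.38), and in bins at least 50% mappable 1.28 (1.03 to 1.59), both of which exclude 1, while scaled to background it was 0.869 (0.729 to 1.03). That made 3.99 knockout and 4.26 wild-type reads per mappable kb, against 0.532 and 0.491 in V sequence more than 2500 bp from any segment. The excess at segments was 7.51-fold (6.43 to 8.75) in the knockout library and 8.67-fold (7.44 to 10.1) in the wild-type library. The log2 ratio of these excesses, knockout over wild type, was -0.21 (-0.52 to 0.11). Without the islands the excess was 7.94-fold (6.76 to 9.32) in the knockout and 10.9-fold (9.23 to 12.8) in the wild-type library, with a log2 ratio of -0.45 (-0.78 to -0.12). The sequence away from segments held 446 knockout and 359 wild-type reads without the islands, and the segments 238 and 262. Leaving out the islands was chosen after seeing the data. Over the genome, promoters against background (reads outside islands and promoters) stood at -0.30 on the same log2 scale. That value lies inside the interval without islands, so a difference particular to V segments was not shown.

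The signal was spread over many V segments at a few reads each. No read was seen at 22 of 116 segments, 15 had 10 or more in both libraries combined, and the median was 3. None of the 116 had an interval that excluded 1, which at the median depth no split of the reads could do. Even Ighv1-76, with 0 knockout and 5 wild-type reads, had an upper bound of 1.25. Ighv3-6 had the most, with 20 knockout and 14 wild-type reads, for a ratio of 1.63 (0.783 to 3.49), and was the 1 segment with 20 or more. Ighv1-82 had 5 knockout and 9 wild-type reads, and Ighv10-1 had 10 and 3. Ighv15-2 and Ighv1-39 had 4 knockout and 9 wild-type reads each, and Ighv8-6 had 7 and 6. The interval of each of these 6 included 1, so none could be called high in either library.

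Segments were also summed by position and family. The proximal segments held 121 knockout and 113 wild-type reads, or a ratio of 1.22 (0.938 to 1.59), and the distal ones 132 and 157, giving a ratio of 0.960 (0.755 to 1.22). The Ighv1 family, the largest with 58 segments (also called J558), held 100 knockout and 132 wild-type reads, for a ratio of 0.865 (0.660 to 1.13). The 6 Ighv3 segments held 34 and 23, or a ratio of 1.69 (0.965 to 3.00), of which Ighv3-6 alone gave 20 and 14. The 10 Ighv5 segments held 25 and 27, the 10 Ighv2 segments 12 and 17, and the 8 Ighv8 segments 15 and 13. The intervals of the 5 families given (Ighv1, Ighv2, Ighv3, Ighv5 and Ighv8) and of the other families summed included 1. Scaled to background, the distal segments had a ratio of 0.779 (0.614 to 0.989) and the Ighv1 family 0.702 (0.536 to 0.917), which exclude 1. The Ighv1 family gave 100 of the 132 knockout and 132 of the 157 wild-type distal reads, so these values share most reads. That scaling lowers every log2 ratio by 0.30, the trimmed mean of promoters included. With it, 15.3% of the genome's bins with 20 or more reads were called lower and 1.98% higher. The 9 segments listed as pseudogenes held 15 knockout and 9 wild-type reads, or 2.34 (1.31 to 3.87) and 1.41 (0.643 to 2.67) per mappable kb. The other 107 had 4.18 (3.66 to 4.75) and 4.58 (4.04 to 5.17). The intervals of the 2 groups overlap in the knockout library and not in the wild-type library. Segments with an octamer in the window had 4.63 knockout and 4.85 wild-type reads per mappable kb, from 213 and 223 reads. Those without it had 2.30 and 2.70, from 40 and 47 reads. The octamer was found in 25 of 37 segments annotated under 320 bp and in 63 of the 79 longer ones. Its part in the density was not separated from annotation length.

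Reads at V segments lay on the segment and on its promoter side. The segments themselves had 6.45 knockout and 7.10 wild-type reads per mappable kb. The 500 bp before them had 3.00 knockout and 3.03 wild-type reads per mappable kb, and the 500 bp after them, where the recombination signal lies, 0.842 in each. The 5′ side exceeded the 3′ side 3.56-fold (2.35 to 5.54) in the knockout library and 3.60-fold (2.38 to 5.59) in the wild-type library. From 500 to 1500 bp the 5′ side had 84 knockout and 60 wild-type reads and exceeded the 3′ side 2.24-fold (1.51 to 3.38) and 2.03-fold (1.29 to 3.25). Within 500 bp the 3′ side held 8 knockout and 20 wild-type reads in the proximal V part and 22 and 10 in the distal V part, with opposite directions in the 2 parts, and this difference was not tested.

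**Figure D5:**
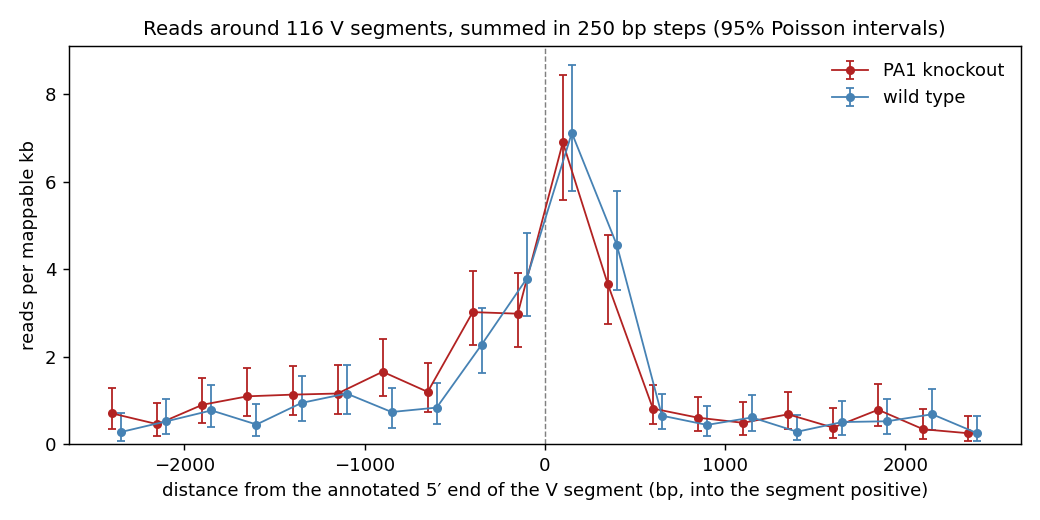
Reads per mappable kb (y axis) in 250 bp steps around the annotated 5′ ends of 116 V segments (x axis, bp, positive into the segment), for the knockout and wild-type libraries, with 95% Poisson intervals. Both libraries peak in the first step inside the segment. The step after it stands at 3.65 knockout and 4.55 wild type, and the step before it, on the promoter side, at 2.98 and 3.79. From 500 to 1500 bp from the 5′ end both libraries are lower on the 3′ side than on the promoter side.

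Away from islands, V sequence had a low density that was slightly higher in the knockout library, and the other sequence compared had ratios from 1.21 to 1.32. V bins outside islands held 887 knockout and 777 wild-type reads (0.708 and 0.620 per mappable kb), giving a ratio of 1.30 (1.18 to 1.44), or 1.06 scaled to background. The ratio was 1.43 (1.23 to 1.67) in the proximal and 1.22 (1.08 to 1.39) in the distal V part. Set against other sequence outside islands inside each library, the V bins gave a log2 ratio of ratios of 0.10 (-0.05 to 0.25) with every 200th bin of the genome. It was -0.01 (-0.17 to 0.16) for chromosome 12 beyond the range and 0.05 (-0.13 to 0.23) for the kappa light chain V locus. For the T cell receptor V loci it was -0.01 for both Trb (-0.32 to 0.29) and Tra (-0.30 to 0.29). The Igh V density was 1.12 times (1.04 to 1.20) that of the genome sample in the knockout library and 1.04 times (0.965 to 1.12) in the wild-type library. These V bins include the V segments. V sequence more than 2500 bp from any segment had, without islands, 0.477 knockout and 0.384 wild-type reads per mappable kb. The genome sample had 0.633 and 0.596.

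In 100 kb steps, the last of 70 kb, the range held no stretch called lower in the knockout library. Of 26 windows 4 were called higher, where 17.7% of such windows in the genome were, and 0 lower, where 0.271% were. The highest ratio was at chr12:115680001-115780000, across the boundary of proximal and distal V, with 60 knockout against 28 wild-type reads, hence a ratio of 2.45 (1.54 to 3.98). Scaled to background, 1 window was called higher and 1 lower, beside 5.16% and 2.44% in the genome. Of 257 windows of 10 kb, 11 had no read in either library, 28 had knockout reads alone, at most 5, and 24 had wild-type reads alone, at most 7. The share of such windows over the genome was not computed, so these counts are not read as a difference between the libraries.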

How the data were processed

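Lines of the authors' deposited files each hold 1 mapped read of 25 bases with its strand and a match descriptor, and their score column is 0 throughout, so the only measurement used was the count of reads made here. The submitters' processing notes name the build mm9 and the tool SICER without role or version, and no source used here names an aligner. No position and strand is repeated within a file, so strong sites may be compressed slightly. The read total of each library is given with the samples.

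Read 5′ ends were moved 75 bp into the fragment and counted in 1 kb bins. TMM (trimming 30% by ratio and 5% by level) used 12186 of 22367 protein-coding genes, each with 50 or more reads within 1 kb of its most read start site. Ratios carry exact conditional binomial (Clopper-Pearson) 95% intervals, and densities exact Poisson intervals. Both cover counting error only, because with 1 library per genotype the variation between libraries could not be estimated. Islands came from 200 bp windows with 9 or more reads, joined across 200 bp and kept at 20 or more reads, with 80% of the genome taken as mappable. A position was mappable where its 25-mer occurs once in NCBIM37, and 100% of the reads in the range lay at such positions. Segments come from GENCODE vM1, of which 137 of 138 were given symbols through RefSeq names and synonyms (GRCm38.p6). The copy search used blastn 2.17.0, and counting and intervals Python 3.11.15 with numpy 2.4.6, scipy 1.17.1 and pandas 2.3.3. Intervals and calls were checked on counts simulated as independent Poisson draws, which hold no variation between libraries and so cannot test for it. Described in full were all islands, all called bins and the 6 V segments with the most reads. The range, lists and call rules were chosen with earlier results of these data known. Alternatives were another scaling, no shift, reads without mismatch, mappable bins, other minimums and bin sizes, and islands left out.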

Additional observations from a re-analysis of the deposited data

How the results depend on the processing

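No paired analysis was possible because each genotype has 1 library. Scaled to background (reads outside islands and promoters), the ratio was 0.978 for the whole range and 0.869 for the V segments. It was 0.902 for the D-J part, 1.02 for the proximal V part and 0.983 for the distal V part. Each of these intervals included 1. The number of bins called higher was 0 with that scaling, with a minimum of 50 reads and with 2 kb bins, and 2 with a minimum of 10 reads. Counting reads outside islands alone gave 1.31 for the whole range and 1.39 for the D-J part. The V segment ratio was 1.28 (1.03 to 1.59) in bins at least 50% mappable, and 1.18 (1.01 to 1.38) with 1 kb on either side. A window probability of 1e-08 left 3 islands. The excess at V segments in the wild-type library was 10.9-fold without islands. The cause of these shifts was not tested, except that leaving out islands removes their reads by construction.

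Of the other alternatives run, 71 stayed within counting error or on the same side of the threshold. The V island ratio ran from 0.436 to 0.557 over 4 of them, the Ighd1-1 island ratio from 0.737 to 0.937, and the 5′ over 3′ excess at V segments from 3.36 to 4.18 in the knockout and from 3.43 to 4.96 in the wild-type library. The alternatives on the islands and on the V segment excesses were chosen after seeing the data. Depth limits single segments and bins: the median V segment had 3 reads, and 8 bins had 20 or more.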
